A study of Homo sapiens with 6 samples.

Results

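The genes described here make, coat and break down triglyceride, the fat that cells store in lipid droplets. The set holds 46 genes of the 56756 with exon bins in the deposited tables. They were chosen by name, with earlier results of these data known. Of the 46, 24 act in synthesis, 11 coat or build the droplet, 6 act in lipolysis and 5 are diacylglycerol kinases. The kinases draw on the same diacylglycerol pool. Messenger RNA was sequenced from HEK293, a line derived from human embryonic kidney, in 3 libraries labelled WT and 3 labelled MUL1(-/-), with no treatment named for either genotype. MUL1 is an E3 ubiquitin ligase of the mitochondrial outer membrane, and the comparison asks how the transcripts of this pathway differ between the genotypes. The study inactivated MUL1 with CRISPR-Cas9 in clones of HEK293, so effects of its loss cannot be told apart here from differences between clones. Both genotypes were grown in the same glutamine-supplemented DMEM with fetal calf serum, and the study describes independent clones of each genotype, but neither the labels nor the methods say which clones the libraries came from or whether those of a genotype are separate cultures, so the p-values measure only the spread between these libraries.

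Triglyceride is built by adding acyl chains to glycerol 3-phosphate. GPAT enzymes add the first chain and AGPAT enzymes the second, lipins remove the phosphate to leave diacylglycerol, and DGAT enzymes add the last chain. The product gathers between the leaflets of the endoplasmic reticulum membrane and buds off as a droplet coated with perilipins, and lipases release its fatty acids again. PLIN2 encodes the coat protein of most tissues and PLIN1 that of fat cells.

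Gene counts summed over exon bins were 131672957 to 148036393 in WT and 126449384 to 127084874 in MUL1(-/-). MUL1 itself was counted at 14.8, 14.7 and 18.3 CPM (counts per 1e6, with library sizes scaled by TMM factors) in WT and at 18.0, 16.0 and 18.7 in MUL1(-/-), a log2 fold change of 0.14 ± 0.10 (SE, edgeR's quasi-likelihood test, adjusted p = 0.302). This level gives no check of the genotype, and every direction below rests on the library labels. Of 6 marker genes of HEK293, 6 were expressed, with summed levels, mostly of VIM, of 1244 to 1444 CPM in WT and 900 to 1055 CPM in MUL1(-/-). Of these VIM (-0.33), KRT8 (-0.93) and PAX2 (-1.79) fell and NEFM (1.07) rose on the log2 scale. The summed levels of 5 adipocyte markers, mostly of CFD, were 8.0 to 9.53 and 5.50 to 6.12 CPM, with ADIPOQ at 3 counts or fewer in every library. Those of 4 hepatocyte markers were 0.150 to 0.313 and 0.228 to 0.330 CPM, with APOB at 0. The 3 leukocyte markers summed to 0.649 to 0.940 and 1.17 to 1.54 CPM, with CD3E at 3 counts or fewer in every library, the 3 endothelial markers to 0.0917 to 0.239 and 0.449 to 0.684 CPM, and the 4 fibroblast markers to 22.8 to 30.2 and 26.8 to 35.9 CPM. Of these 19 markers of other cell types, 13 were tested, 6 rose and 2 fell. The rises were FABP4 (2.62), PTPRC (1.95), PECAM1 (2.07), VWF (1.81), DCN (1.30) and LUM (3.10) on the log2 scale. The falls were CFD (-0.69) and COL1A1 (-0.38). The part of these markers in the results was not tested, and in bulk RNA fewer cells of a kind and less RNA per cell cannot be told apart.

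Promoter sequences are shown for the 4 members that passed both thresholds given below and have a single promoter window in the RefSeq table (build GRCh38.p14), and for the DGKZ start whose first exon changed in usage. Each window runs from 250 bases before the transcript start to 50 after it, 5′ to 3′ on the gene's strand. Capitals mark the core letters bound by the hypoxia-inducible factor, ACGTG or GCGTG, on either strand. The motif ACGTG also lies inside the E-box CACGTG.
GK (chrX:30653173-30653472, forward strand): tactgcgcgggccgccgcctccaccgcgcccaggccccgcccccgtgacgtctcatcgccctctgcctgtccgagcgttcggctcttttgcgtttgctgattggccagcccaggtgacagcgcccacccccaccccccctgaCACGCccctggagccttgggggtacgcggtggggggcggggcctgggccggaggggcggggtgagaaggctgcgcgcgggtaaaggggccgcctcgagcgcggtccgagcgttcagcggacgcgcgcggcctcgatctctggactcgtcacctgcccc
PLIN2 (chr9:19127443-19127742, reverse strand): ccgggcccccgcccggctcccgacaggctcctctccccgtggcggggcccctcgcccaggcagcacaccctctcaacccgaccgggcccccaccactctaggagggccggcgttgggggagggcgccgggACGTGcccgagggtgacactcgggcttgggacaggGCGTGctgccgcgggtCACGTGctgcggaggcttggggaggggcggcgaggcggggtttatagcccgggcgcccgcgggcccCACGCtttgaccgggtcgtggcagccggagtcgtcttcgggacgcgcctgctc
LIPG (chr18:49561807-49562106, forward strand): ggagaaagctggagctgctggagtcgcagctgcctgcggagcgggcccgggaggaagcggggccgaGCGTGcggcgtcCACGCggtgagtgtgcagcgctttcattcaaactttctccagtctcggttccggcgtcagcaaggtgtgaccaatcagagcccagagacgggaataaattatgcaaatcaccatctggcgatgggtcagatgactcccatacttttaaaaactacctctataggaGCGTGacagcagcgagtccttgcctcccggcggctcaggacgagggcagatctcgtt
PLIN4 (chr19:4518437-4518736, reverse strand): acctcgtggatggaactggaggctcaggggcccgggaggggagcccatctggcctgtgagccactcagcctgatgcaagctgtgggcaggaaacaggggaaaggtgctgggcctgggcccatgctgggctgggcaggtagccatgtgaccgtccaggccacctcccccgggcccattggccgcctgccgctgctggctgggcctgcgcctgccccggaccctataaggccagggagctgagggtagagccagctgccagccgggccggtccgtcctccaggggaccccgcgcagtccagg
DGKZ (chr11:46347213-46347512, forward strand): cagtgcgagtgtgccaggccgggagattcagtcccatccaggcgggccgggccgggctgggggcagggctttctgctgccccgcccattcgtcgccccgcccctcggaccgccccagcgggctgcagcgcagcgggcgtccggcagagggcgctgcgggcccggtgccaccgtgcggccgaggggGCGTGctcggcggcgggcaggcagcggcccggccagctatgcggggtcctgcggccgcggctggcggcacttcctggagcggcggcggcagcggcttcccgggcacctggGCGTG

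The PLIN2 window held 3 matches to ACGTG, 2 of them the overlapping strands of 1 CACGTG at 69 bases before the start, and 2 to GCGTG. The GK window held 1 match to GCGTG, LIPG 3 and DGKZ 2, while these letters were not in the PLIN4 window. Over all 35116 windows in the table, 21.4% held ACGTG, 36.5% GCGTG and 7.26% CACGTG. Of the 64 windows of the 35 members listed there, 10 held ACGTG, 27 GCGTG and 3 CACGTG. The sterol response motif TCACNCCAC was in 1 of the 64 and in 1.13% of all windows, and the nuclear receptor half-site AGGTCA in 2 and in 13.8%. A match is a description of letters, not a binding site. DGKB had 3 windows, of which none is printed. The table has no entry for MGLL, DGAT1, LPIN3, DGKQ, DGAT2, GPAT4, AGPAT5, MOGAT2, MBOAT1, GPD1 or LPL.

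Transcripts for the final step of synthesis through DGAT2, for the coat protein perilipin 2 and for glycerol kinase were lower in the libraries labelled MUL1(-/-), by 3.05 to 4.25 times, whereas the first acylation through GPAT3 and GPAT4 and 4 of the 5 perilipins were higher. Per kilobase of exon, DGAT1, which rose, was 32.6 to 41.4 times DGAT2 in WT, and PLIN2 supplied 1.43% of the summed perilipin level. A read is counted in each bin it touches, so levels per kilobase between genes also depend on how finely a gene is binned. DGAT1 has 36 bins in 3.7 kb and DGAT2 25 in 7.9 kb. PLIN3 and PLIN2 have 25 bins each, in 2.8 kb and 5.1 kb. PLIN3, PLIN4 and PLIN5 lie in one stretch of chromosome 19, where their 20 nearest tested genes had median log2 fold changes of 0.59 to 0.75. The calls of PLIN1 and PLIN5 were lost in some fits that left out 1 library. Of the 46 members, 43 had enough counts to be tested. An adjusted p under 0.05 was reached by 24 of 43, beside 37.5% of all 25017 genes tested. Of these, 14 rose, against 19.2% of all genes, and 10 fell, against 18.3%. With the added condition of an absolute log2 fold change above 1, the rule the study used for differential expression, 7 members passed, beside 8.1% of all genes: 2 rose, PLIN4 and DGKB, against 4.29%, and 5 fell, GK, DGAT2, MBOAT1, PLIN2 and LIPG, against 3.81%. WT and MUL1(-/-) libraries held separate ranges, with no overlap, for 26 of the 43, compared with 48.7% of all genes tested. The median log2 fold change was 0.07 over the members and -0.0024 over all genes, and the median absolute value was 0.32 and 0.29. The median SE was 0.095 over the members and 0.128 over all genes. The members were also chosen with earlier results known, so these shares do not measure an excess of change in the pathway.

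**Figure D1:**
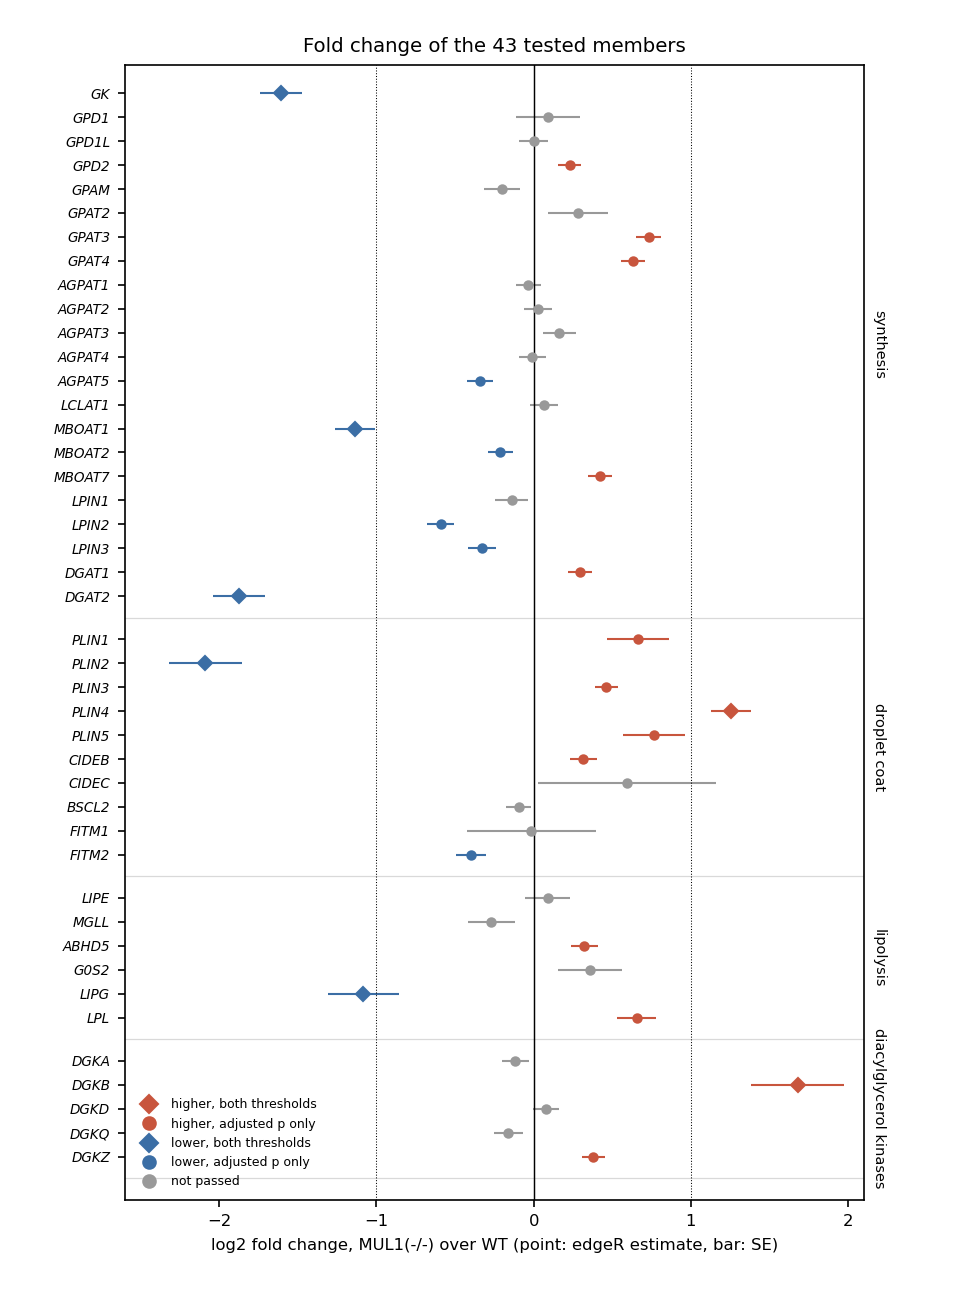
Log2 fold change (MUL1(-/-) over WT, horizontal axis) of each of the 43 tested members, grouped by arm of the pathway; points are edgeR estimates, bars are 1 SE, diamonds passed both thresholds and dotted lines mark a log2 fold change of 1 either way. The lowest points are PLIN2 at -2.09, DGAT2 at -1.87 and GK at -1.61, and the highest are DGKB at 1.68 and PLIN4 at 1.26.

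Glycerol 3-phosphate, the backbone of the lipid, comes from glycerol through glycerol kinase or from glycolysis through cytosolic glycerol 3-phosphate dehydrogenase. GK, the gene for glycerol kinase (ENSG00000198814, chrX:30653359-30731456 in GRCh38, forward strand), was counted at 72.9, 73.7 and 48.3 CPM in WT and at 19.5, 23.4 and 21.0 CPM in MUL1(-/-). The genotypes did not overlap, and WT replicate 3 was the lowest of its group. The log2 fold change was -1.61 ± 0.13 (SE, n = 3 against 3). This gave an adjusted p of 6.7e-07 in edgeR, and the log2 fold change was -1.79 without WT replicate 3. All 36 GK bins with at least 10 counts on average were lower in MUL1(-/-). Full agreement of this kind held for 10 of the 18 members with an adjusted p under 0.05 and enough such bins. It also held for MGLL and GPAT2, which did not pass. The bins of a gene share reads and are not replicates. GK has close copies in the genome, GK2 and GK3P, between which reads could be split, so its level is uncertain to that extent.

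GPD2, the mitochondrial glycerol 3-phosphate dehydrogenase, rose by a small amount, from 44.7, 41.4 and 41.5 CPM to 46.9, 51.0 and 51.7 CPM, a log2 fold change of 0.23 ± 0.07 (adjusted p = 0.0221, edgeR). That call was lost when WT replicate 2 (adjusted p = 0.121), WT replicate 3 (0.0605), MUL1(-/-) replicate 2 (0.0755) or MUL1(-/-) replicate 3 (0.0522) was left out. The cytosolic dehydrogenase GPD1 and its relative GPD1L did not pass, with 95% intervals of the log2 fold change from -0.35 to 0.53 and from -0.20 to 0.20. The 4 tested genes of glycerol 3-phosphate turnover thus held 1 large fall and 1 small rise. The rise, of the mitochondrial enzyme, is not read as a rise in supply of the backbone.

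Of the 4 first acylation genes, the microsomal enzymes GPAT3 and GPAT4 rose. GPAT3 was at 14.2, 13.7 and 14.7 CPM in WT and at 24.0, 23.9 and 22.9 CPM in MUL1(-/-). Its replicates lay close together, and the log2 fold change was 0.73 ± 0.08 (adjusted p = 6.8e-06, edgeR), below the study's fold threshold. GPAT4, also a microsomal enzyme, was at 67.1, 64.1 and 68.1 CPM and at 97.4, 97.2 and 113.9 CPM, a log2 fold change of 0.63 ± 0.08 (adjusted p = 1.8e-05, edgeR). Every tested bin with at least 10 counts on average was higher for both genes, 18 of GPAT3 and 32 of GPAT4.

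The mitochondrial enzyme GPAM did not pass, with a log2 fold change of -0.20 and a 95% interval from -0.44 to 0.04, although it did without MUL1(-/-) replicate 3 (-0.35, adjusted p = 0.0078, edgeR). GPAT2 did not pass either (0.28, from -0.13 to 0.69), except without MUL1(-/-) replicate 3 (0.45, adjusted p = 0.0444, edgeR), and 91.4% of its counts lay in bins that an exon of another gene also touches. Per kilobase of exon, the summed level of the GPAT genes was 14.9 ± 0.439 CPM per kb (SD, n = 3) in WT and 22.1 ± 1.21 in MUL1(-/-). GPAM supplied 13.7 ± 0.901% of that sum in WT and 8.03 ± 0.912% in MUL1(-/-), and GPAT4 more than any other member in both, 56.0 ± 0.456% and 58.6 ± 2.19%.

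AGPAT enzymes turn lysophosphatidate into phosphatidate. AGPAT2 and AGPAT1 had the highest levels per kilobase of all members, 28.0 ± 1.68 and 22.7 ± 2.21 CPM per kb in WT and 28.6 ± 3.56 and 22.2 ± 1.09 in MUL1(-/-), and neither passed the test, with 95% intervals of the log2 fold change from -0.16 to 0.22 and from -0.20 to 0.14. AGPAT5, the member of this family found at mitochondria, fell. It was at 87.3, 82.8 and 91.0 CPM in WT and at 61.3, 67.9 and 76.7 CPM in MUL1(-/-), a log2 fold change of -0.34 ± 0.08 (adjusted p = 0.0046, edgeR), and all 21 of its bins with at least 10 counts were lower. AGPAT3 and AGPAT4 did not pass. AGPAT4 is read differently by its single most counted bin, which gave a log2 fold change of 0.28 (adjusted p = 0.0235, edgeR) against -0.01 for the whole gene.

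The other acyltransferases of the set act on lysophospholipids, and 3 of 4 passed. MBOAT1, which prefers lysophosphatidylserine and lysophosphatidylethanolamine (ENSG00000172197, chr6:20102145-20212399, reverse strand), was at 8.09, 8.75 and 7.37 CPM in WT and at 3.03, 3.83 and 4.15 CPM in MUL1(-/-). The groups were well separated, the highest MUL1(-/-) value lying below the lowest WT value, and the log2 fold change was -1.14 ± 0.13 (adjusted p = 1e-05, edgeR). MBOAT7, which puts arachidonate into phosphatidylinositol, was at 41.0, 37.1 and 38.7 CPM in WT and at 51.6, 48.9 and 56.0 CPM in MUL1(-/-), a log2 fold change of 0.42 ± 0.08 (adjusted p = 0.00057, edgeR). MBOAT2 was just past the threshold (-0.21 ± 0.08, adjusted p = 0.0465, edgeR) and lost its call in 8 of the 15 alternative fits. LCLAT1, which remodels cardiolipin, did not pass.

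Lipins convert phosphatidate to diacylglycerol, and all 3 had estimates below 0. LPIN2 was at 21.6, 21.5 and 18.9 CPM in WT and at 13.4, 13.8 and 14.0 CPM in MUL1(-/-), a log2 fold change of -0.59 ± 0.09 (adjusted p = 8.9e-05, edgeR). The MUL1(-/-) libraries differed from each other by less than 1 CPM, and all 22 bins with at least 10 counts were lower. LPIN3 fell less (-0.33 ± 0.09, adjusted p = 0.0103, edgeR), with an adjusted p of 0.0555 without MUL1(-/-) replicate 1. LPIN1 gave -0.14 with a 95% interval from -0.36 to 0.08 and did not pass. The summed lipin level was 9.86 ± 0.566 CPM per kb in WT and 7.74 ± 0.303 in MUL1(-/-) (SD, n = 3).

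The final acylation showed opposite changes in the 2 DGAT genes, which encode unrelated proteins. DGAT2 (ENSG00000062282, chr11:75759512-75801535, forward strand) was at 3.04, 2.64 and 2.16 CPM in WT and at 0.677, 0.806 and 0.654 CPM in MUL1(-/-). Every MUL1(-/-) value was below 1 CPM and every WT value above 2 CPM, and the log2 fold change was -1.87 ± 0.17 (adjusted p = 1.3e-06, edgeR). All 11 bins with at least 10 counts were lower, by 1.34 to 2.55 on the log2 scale.

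DGAT1, the other enzyme of this step, was at 46.2, 44.7 and 41.6 CPM in WT and at 53.1, 51.3 and 58.5 CPM in MUL1(-/-), a log2 fold change of 0.30 ± 0.08 (adjusted p = 0.0066, edgeR). Per kilobase of exon, DGAT1 was already 32.6, 36.3 and 41.4 times the level of DGAT2 in WT, and it was 168.2, 136.3 and 191.8 times that level in MUL1(-/-). As DGAT1 rose and DGAT2 fell, each with no overlap, these ratios had to separate. The exact permutation test could therefore only give p = 0.1, two-sided, the smallest that 3 libraries against 3 allow. It adds nothing to the results of the single genes. The monoacylglycerol acyltransferases MOGAT1 and MOGAT2 were at 3 counts or fewer in all 6 libraries and were not tested.

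**Figure D2:**
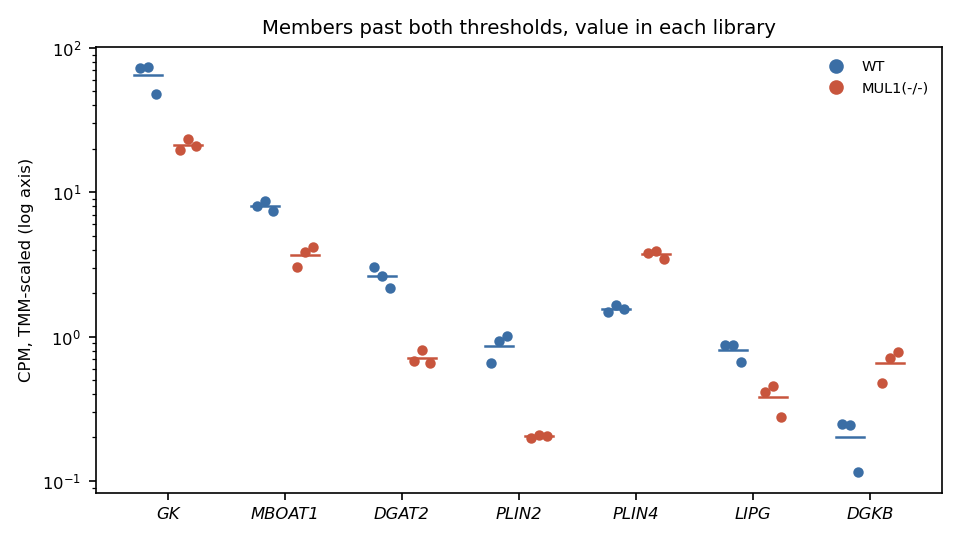
Level of each of the 7 members past both thresholds in each library (vertical axis, TMM-scaled CPM on a log axis; points are libraries, lines are group means of 3). WT and MUL1(-/-) points are separate for every gene shown, with the widest gap on the log axis at PLIN2, from 0.654 in the lowest WT library to 0.207 in the highest MUL1(-/-) library.

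Perilipins moved in both directions. PLIN2 (ENSG00000147872, chr9:19108375-19149290, reverse strand) encodes the widely expressed coat protein and was at 0.654, 0.929 and 1.02 CPM in WT and at 0.198, 0.207 and 0.205 CPM in MUL1(-/-). These are low levels, equal to 87, 136 and 133 counts in WT and 26, 27 and 26 in MUL1(-/-). The MUL1(-/-) libraries were nearly equal, the groups did not overlap, and the log2 fold change was -2.09 ± 0.23 (adjusted p = 9.7e-06, edgeR), the largest fall of any member.

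PLIN4 (ENSG00000167676, chr19:4502180-4518465, reverse strand), a coat protein with a long repeated helix, was at 1.47, 1.67 and 1.54 CPM in WT and at 3.80, 3.92 and 3.47 CPM in MUL1(-/-). The groups did not overlap, and the log2 fold change was 1.26 ± 0.13 (adjusted p = 3.5e-06, edgeR). Of its counts, 56.1% lay in bins touched by an exon of another gene, and without those bins the log2 fold change was 1.70. The strand setting of the counting is not given in the sources used here, so it is open whether reads of an overlapping gene on the other strand are included.

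PLIN3, the coat protein found on nascent droplets and in the cytosol, made up most of the family. It was at 31.9, 29.7 and 33.2 CPM in WT and at 44.5, 43.2 and 42.8 CPM in MUL1(-/-), a log2 fold change of 0.46 ± 0.07 (adjusted p = 0.00019, edgeR). Per kilobase, PLIN3 supplied 94.0 ± 0.185% of the summed perilipin level in WT and 93.3 ± 0.552% in MUL1(-/-). The share of PLIN2 was 1.43 ± 0.311% and 0.241 ± 0.0107%, and that of PLIN4 2.02 ± 0.227% and 3.46 ± 0.172% (SD, n = 3).

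The perilipins of fat cells and of oxidative tissue, PLIN1 and PLIN5, rose at levels near 1 CPM, with log2 fold changes of 0.66 ± 0.20 (adjusted p = 0.0169, edgeR) and 0.77 ± 0.20 (0.0071). Their calls were not stable to single libraries. That of PLIN1 was lost without WT replicate 1 (adjusted p = 0.0587), WT replicate 2 (0.0934) or MUL1(-/-) replicate 2 (0.0788), and that of PLIN5 without WT replicate 2 (0.0513).

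**Figure D3:**
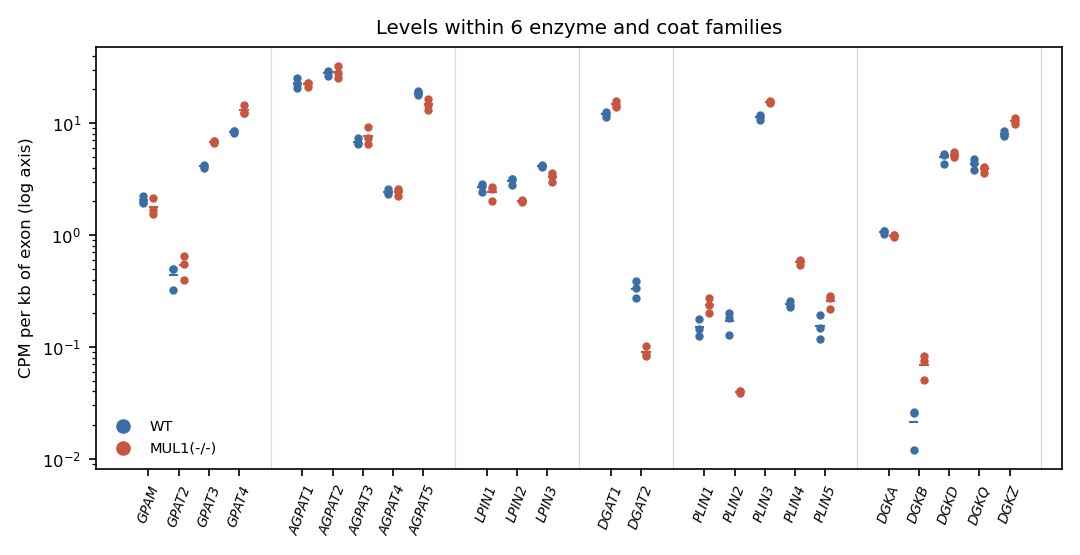
Level per kilobase of exon (vertical axis, CPM per kb on a log axis) of each member of 6 families in each library, with lines at the group means of 3. AGPAT2 and AGPAT1 stand highest in both genotypes, PLIN3 lies far above the other perilipins, and DGAT1 lies above DGAT2 in every library.

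CIDE proteins fuse droplets, and their transcripts were scarce or hard to assign. CIDEB rose from 18.4, 18.7 and 19.9 CPM to 22.6, 22.3 and 25.9 CPM, a log2 fold change of 0.31 ± 0.09 (adjusted p = 0.0093, edgeR). All of its counts, 100%, lay in bins touched by exons of another gene, so the rise cannot be assigned to CIDEB. CIDEC did not pass, at 0.0226 to 0.281 CPM over the 6 libraries. CIDEA was at 0, 2 and 1 counts in WT and at 5, 1 and 5 counts in MUL1(-/-), too few to test.

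Of the genes for droplet budding, FITM2, an endoplasmic reticulum protein needed for droplets to form, fell from 7.63, 7.56 and 8.08 CPM to 5.63, 5.97 and 6.03 CPM, a log2 fold change of -0.40 ± 0.10 (adjusted p = 0.0048, edgeR). BSCL2, the gene for seipin, did not pass, and its 95% interval ran from -0.27 to 0.07. FITM1, known from muscle, was at 0.183 CPM or less in every library and did not pass.

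Of the 4 genes of intracellular lipolysis, 1 passed the test. ABHD5, the activator of the main droplet lipase, was at 11.3, 10.5 and 10.9 CPM in WT and at 13.6, 13.0 and 14.3 CPM in MUL1(-/-), a log2 fold change of 0.32 ± 0.09 (adjusted p = 0.0096, edgeR). The call was lost without WT replicate 2 (adjusted p = 0.0702) and in the most counted bin (0.317). PNPLA2, the lipase that ABHD5 activates and a gene of the lists below, fell by 0.34 ± 0.10 on the log2 scale (adjusted p = 0.0132, edgeR), a call lost without WT replicate 1 (adjusted p = 0.0645), MUL1(-/-) replicate 1 (0.0669) or MUL1(-/-) replicate 2 (0.0708). Hormone-sensitive lipase (LIPE), monoglyceride lipase (MGLL) and the lipase inhibitor G0S2 did not pass, with 95% intervals of the log2 fold change from -0.22 to 0.39, -0.59 to 0.05 and -0.08 to 0.79. MGLL passed without WT replicate 3 (log2 fold change -0.43, adjusted p = 0.0218, edgeR).

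The secreted lipases went opposite ways. LIPG, endothelial lipase (ENSG00000101670, chr18:49560699-49599182, forward strand), was at 0.880, 0.874 and 0.665 CPM in WT and at 0.411, 0.453 and 0.276 CPM in MUL1(-/-). The groups did not overlap, and the log2 fold change was -1.08 ± 0.23 (adjusted p = 0.0016, edgeR), or -0.90 without MUL1(-/-) replicate 3, which is inside the fold threshold. LPL, lipoprotein lipase, was at 7.10, 6.17 and 5.17 CPM in WT and at 9.03, 10.6 and 9.35 CPM in MUL1(-/-), a log2 fold change of 0.65 ± 0.12 (adjusted p = 0.0007, edgeR).

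Diacylglycerol kinases return diacylglycerol to phosphatidate, and 2 of the 5 in the set passed, both upward. Among 4 other tested kinases outside the set, none rose and DGKE fell (log2 fold change -0.54 ± 0.09, adjusted p = 0.00025, edgeR). DGKB (ENSG00000136267, chr7:14145049-14974777, reverse strand) had the lowest level per kilobase in WT of the members tested. It was at 0.248, 0.246 and 0.115 CPM in WT and at 0.479, 0.707 and 0.780 CPM in MUL1(-/-). The groups did not overlap and the log2 fold change was 1.68 ± 0.30 (adjusted p = 0.00046, edgeR), at 0.0214 CPM per kb in WT and 0.0690 in MUL1(-/-). DGKZ, the kinase with the highest level per kilobase of the 5, was at 84.9, 82.4 and 91.7 CPM in WT and at 113.3, 104.7 and 118.6 CPM in MUL1(-/-), a log2 fold change of 0.38 ± 0.07 (adjusted p = 0.00084, edgeR). Its share of the summed level of the 5 was 43.7 ± 3.63% in WT and 50.6 ± 2.47% in MUL1(-/-). DGKA, DGKD and DGKQ did not pass, and DGKQ did without WT replicate 3 (-0.26, adjusted p = 0.0399, edgeR).

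The 19 tested members that did not pass had log2 fold changes from -0.27 to 0.59 and 95% intervals that together reach from -0.89 to 1.81, the widest being those of the weakly counted CIDEC and FITM1. A missed threshold does not show that a gene stayed level. In 7 members over 20% of the counts lay in bins that an exon of another gene also touches, namely CIDEB, GPAT2, PLIN4, AGPAT1, LIPE, GPAT4 and LPIN3, and 4 members, DGAT1, PLIN5, BSCL2 and FITM1, were counted under identifiers joined with an overlapping gene.

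Exon bins were tested for usage, the change of a bin relative to the rest of its gene (edgeR's diffSpliceDGE), with the same thresholds on the adjusted p and the log2 difference. Of 893 member bins in 38 members, 4 changed, or 0.448%, beside 0.492% of the 321326 bins tested. All 4 were at first exons and were used more in MUL1(-/-). A pair lay in DGKZ, at the start of exon 1 of the annotated transcript DGKZ-214. The first, chr11:46347463-46347522, begins at the transcript start of the DGKZ window printed above and had 14, 4 and 11 counts in WT and 62, 31 and 39 in MUL1(-/-), a log2 difference of 1.87 (adjusted p = 1.3e-06). Its share of the DGKZ counts was 0.0829 ± 0.0461% in WT and 0.301 ± 0.101% in MUL1(-/-). The bin covers 60 bases of 10.8 kb of DGKZ exon, so this share does not measure how often the start is used. The second, chr11:46347523-46347571, had a log2 difference of 1.16 (adjusted p = 8.5e-06) and 0.91 without WT replicate 2.

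**Figure D4:**
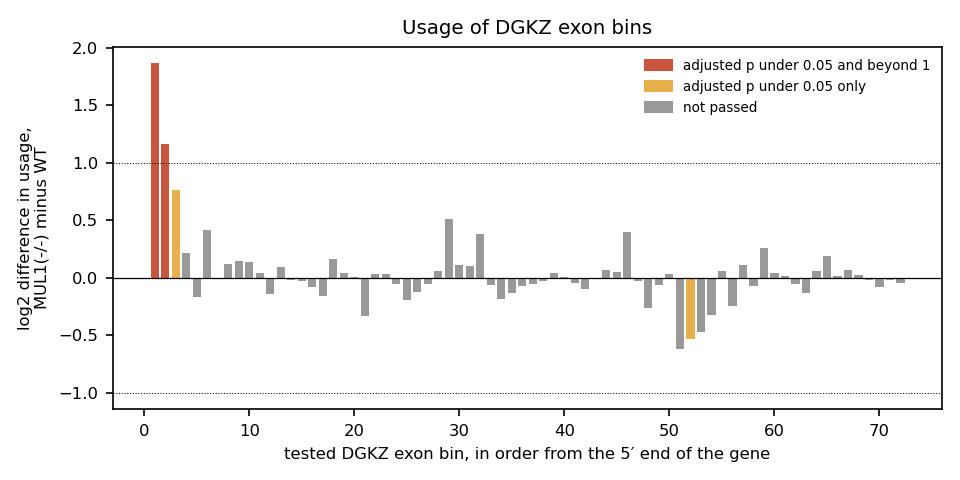
Log2 difference in usage (MUL1(-/-) minus WT, vertical axis) of each of the 72 tested DGKZ exon bins, ordered from the 5′ end; dotted lines mark a difference of 1 either way. The first 2 bins stand at 1.87 and 1.16, and 4 of the 72 had an adjusted p under 0.05.

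The other changed bins were short or thinly counted. One, chr2:9003710-9003813 in exon 1 of MBOAT2-201, had a log2 difference of 1.19 (adjusted p = 0.0038), against a fall of the whole gene, and lost its call without WT replicate 2 (adjusted p = 0.129) or MUL1(-/-) replicate 3 (0.121). One of 4 bases in LCLAT1, chr2:30447384-30447387, had a log2 difference of 1.44 (adjusted p = 0.0390) and lost its call in 5 of 6 fits that each left out 1 library.

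A further 8 member bins passed the adjusted p with a log2 difference inside 1. The smallest p among these belonged to AGPAT3, in an exon of AGPAT3-201 and AGPAT3-205 at chr21:43984674-43986536. That bin held 5.06 ± 0.777% of the AGPAT3 counts in WT and 9.70 ± 1.01% in MUL1(-/-) (SD, n = 3), a log2 difference of 0.94 (adjusted p = 1.5e-07), while the whole gene did not pass. In PLIN4, the bin chr19:4510446-4513704 held 23.5 ± 2.96% of the counts in WT and 36.5 ± 1.95% in MUL1(-/-), a log2 difference of 0.64 (adjusted p = 0.0174).

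Neighbouring genes moved along with some members. Each member's log2 fold change was set beside the median of the 20 nearest other tested genes on its chromosome. After that median was subtracted, 6 of the 7 differentially expressed members were still beyond 1, with DGAT2 at -2.04, PLIN2 at -2.09, DGKB at 1.61, GK at -1.35, MBOAT1 at -1.13 and LIPG at -1.07. PLIN4 went from 1.26 to 0.51. PLIN4, PLIN5 and PLIN3 lie within one stretch of chromosome 19, where the neighbours' medians were 0.75, 0.69 and 0.59, and after subtraction PLIN5 was at 0.08 and PLIN3 at -0.12. Of the 24 members with an adjusted p under 0.05, 20 had the same sign after subtraction and 4 the other sign, namely MBOAT2, MBOAT7, LPIN3 and PLIN3. GPAT3 was at 0.82 and GPAT4 at 0.35 after subtraction, and DGAT1 at 0.11. These differences are values with no test, and the part of the neighbourhood in the results was not tested.

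Genes around the pathway were taken from 5 lists of 52 genes, of which 48 were tested. Of these 12 rose and 14 fell, beside 19.2% and 18.3% of all genes tested, and 1 passed both thresholds, beside 8.1%. It was PNPLA3, a lipase and acyltransferase of the droplet surface, with 6.53 ± 0.460 CPM in WT and 3.19 ± 0.592 in MUL1(-/-) (SD, n = 3), a log2 fold change of -1.03 ± 0.14 (adjusted p = 3.9e-05, edgeR). Among the 13 tested droplet proteins and lipases that include it, 3 rose and 6 fell, and the gene with the highest mean CPM, AUP1, rose by 0.21 ± 0.07 (adjusted p = 0.0275, edgeR), a call lost in 4 of the 6 fits that left out 1 library. In fatty acid synthesis and activation 3 rose and 3 fell among 12 genes, and the gene with the highest mean CPM, FASN, fatty acid synthase, fell from 1381 ± 173 to 911 ± 47.7 CPM, a log2 fold change of -0.60 ± 0.08 (adjusted p = 5.7e-05, edgeR).

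Of 9 tested regulators of triglyceride storage, 4 rose and 2 fell, and the gene with the highest mean CPM, CTDNEP1, the phosphatase that activates lipins, rose by 0.51 ± 0.07 (adjusted p = 4.5e-05, edgeR). Among 10 genes of phosphatidylcholine and phosphatidylethanolamine synthesis, 2 rose and 2 fell, and the gene with the highest mean CPM, CHPT1, had a log2 fold change of -0.17 ± 0.07 (adjusted p = 0.0784, edgeR) and did not pass, except without MUL1(-/-) replicate 3 (0.0225), in its most counted bin (0.0468) or with a filter of 1 CPM (0.0478). Of 4 other diacylglycerol kinases tested, 1 fell and none rose. It was DGKE, with a log2 fold change of -0.54 ± 0.09 (adjusted p = 0.00025, edgeR), and the gene with the highest mean CPM, DGKH, did not pass (0.14 ± 0.10, adjusted p = 0.281, edgeR).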

How the data were processed

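RNA of HEK293 cells was sequenced in 3 WT and 3 MUL1(-/-) libraries, grouped by their labels. The tables deposited by the authors hold unnormalized counts of reads, listed for each exon bin of a flattened annotation; the submitters' processing notes name Trimmomatic 0.36, STAR 2.5.2b and GRCh38, and the counting program and its strand setting are not given in the sources used here. The 46 members, the pathway lists and the marker lists were chosen with earlier results of these data known. The plan had assumed counts per gene, and a gene's count was therefore the sum over its bins, and bins under the 2031 joined identifiers (21.0% of counts) were given to the gene whose same-strand GENCODE 29 exons alone overlap them, which left out 0.779% of counts. A read touching several bins is counted in each, so sums exceed the number of reads. The excess depends on how finely a gene is binned, which limits comparisons of levels per kilobase between genes. Library totals are given in the results, where 1 count equals 0.00676 to 0.00791 CPM and 3 counts were taken as the floor, which covers counting error only. Chi-square statistics per degree of freedom between replicates, over the most counted bin of each gene so that a read enters once per gene, were 2.96 to 10.9, and no library was taken as a repeat of another.

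Genes were compared with edgeR 4.0.16 in R 4.3.3 (filterByExpr, TMM factors, quasi-likelihood test, Benjamini-Hochberg adjustment over 25017 genes, 3 libraries against 3), with a positive log2 fold change meaning higher in MUL1(-/-). Standard errors were taken from the F statistic, and 95% intervals used 14.1 degrees of freedom. A gene passed at an adjusted p under 0.05 and was called differentially expressed when its absolute log2 fold change was also above 1. Usage of exon bins was tested with diffSpliceDGE. The tests were tested on simulated data for WT against MUL1(-/-): of 200 genes among 25017 changed by 1.5 on the log2 scale, edgeR recovered 191 with 4 false calls, DESeq2 175 with 1 and voom 190 with 8, and of 200 bins among 316414 changed by 2, diffSpliceDGE recovered 192 with 26 false calls. The simulation gave all genes and bins the same dispersion and drew bins independently of each other. Its figures therefore do not carry over to thinly counted genes or to neighbouring bins that share reads. DESeq2 1.42.0 and limma 3.58.1 served as alternatives, with other scalings, filters, bin choices, a replicate block and each library left out. Every member past both thresholds is given with its value in each library, as is the member with the smallest p in each of the 12 roles among those past the adjusted p alone, and other members by ranges. In each pathway list, genes past both thresholds and the gene with the largest mean CPM are named. AGPAT4, PNPLA2, DGKE, the 4 HEK293 markers and the bins of AGPAT3 and PLIN4 were singled out after their values were seen. Tables and figures used Python 3.11.15, pandas 2.3.3 and matplotlib 3.10.9.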

Additional observations from a re-analysis of the deposited data

How the results depend on the processing

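The fits with other scalings, filters, bin choices and tests, and the fits without 1 library each, left 10 to 14 members higher and 8 to 12 lower at an adjusted p under 0.05, against 14 and 10 in the reported fit, and GK, DGAT2, MBOAT1, PLIN2, PLIN4 and DGKB passed both thresholds in every fit that tested them. Over the 6 fits that lacked 1 library, 10 to 14 members were higher, 8 to 12 lower, 2 differentially expressed upward and 4 to 5 downward, LIPG being the gene lost without MUL1(-/-) replicate 3. A filter of 1 CPM in 3 libraries left 1 differentially expressed member upward and 3 downward, because DGKB, PLIN2 and LIPG are then no longer tested. Member bins with changed usage numbered 4, 1 with bins of at least 50 counts on average, and 1 to 7 over the fits lacking 1 library, with 1 without WT replicate 2, 2 without MUL1(-/-) replicate 3 and 7 without WT replicate 3, for which the cause was not tested. CIDEB had no unshared bins and DGKB no tested most counted bin, so those fits gave no value for them.

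Of members that did not pass, estimates near 0 changed sign. GPD1L was at 0.000394 with DESeq2, 0.0625 with library totals, 0.0231 with no filter, 0.00314 with the 1 CPM filter and 0.00345 with limma-voom. AGPAT1 was at 0.0280 with library totals, AGPAT4 at 0.0540 with library totals, 0.0128 with no filter and 0.284 in its most counted bin, and FITM1 at 0.0501 with library totals and 0.00527 with no filter. With 1 library left out the ranges were -0.0887 to 0.393 for GPD1, -0.108 to 0.0539 for GPD1L, -0.113 to 0.0288 for AGPAT1, -0.0693 to 0.111 for AGPAT2, -0.0580 to 0.0478 for AGPAT4, -0.308 to 0.316 for FITM1, -0.0615 to 0.190 for LIPE and -0.0157 to 0.121 for DGKD. Less the median of 20 neighbours, 4 members that did pass also changed sign. MBOAT2 went from -0.21 to 0.0792, MBOAT7 from 0.42 to -0.0766, LPIN3 from -0.33 to 0.222 and PLIN3 from 0.46 to -0.124. The cause of these changes was not tested.

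The replicate numbers 1 to 3 of the labels are shared by the genotypes, but same-numbered libraries deviated from their group means with correlations of -0.0745, 0.167 and 0.107, so they share only a number. With the replicate number as a block, 14 members were higher and 9 lower at an adjusted p under 0.05, 2 and 5 passed both thresholds, 5 member bins changed, and GPD1L was at 0.00440. Depth limits the statements on MOGAT1, MOGAT2 and CIDEA, which had too few counts to be tested, and the intervals of CIDEC and FITM1 are wide.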
